A study of Mus musculus with 5 samples.

Results

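Vascular smooth muscle cells of the tibialis anterior, a hind-limb muscle, were described from single-cell libraries of aged mice. They numbered 1359 of 50460 retained cells, out of 56922 deposited barcodes. A barcode was retained with 200 or more detected genes and no more than 10% of its UMIs (unique molecules) from mitochondrial genes. A retained cell was a member when at least 4 of Myh11, Cnn1, Lmod1, Pln, Tesc and Nrip2 had a UMI. It could hold at most 1 UMI of the pericyte genes Kcnj8 and Higd1b together. It could also hold at most 1 UMI of Pecam1, Cdh5, Ptprc and Pdgfra together, which mark endothelial, immune and fibro-adipogenic cells. The measured levels of those 12 genes chose the members, so none of them is a result. The mice were female C57BL/6 animals of 26 months, and the labels name no genetic change or drug. Frail mice, 2 in number, scored at or above 0.18 on a frailty index of accumulated deficits, and 3 control mice scored below it. The groups are thus the 2 sides of 1 cutoff and not a treatment. Each mouse gave 1 library of 10x Genomics 3′ V4 chemistry. The labels describe both a digested suspension of whole cells and a preparation of nuclei, and the barcodes are called cells here.

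Smooth muscle cells wrap arteries and arterioles and set their diameter. Calcium entering the cytoplasm activates myosin light chain kinase, and phosphorylated myosin pulls on smooth muscle actin. Nitric oxide from the endothelium relaxes the cell through soluble guanylate cyclase and cGMP. Pericytes, the other mural cells, lie along capillaries.

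Of 2175 cells with at least 4 of the 6 rule genes, 467 were dropped for Kcnj8 or Higd1b and 349 more for the lineage genes. All 6 rule genes were detected in 1036 members, exactly 5 in 239 and exactly 4 in 84. A further 74 cells met every other condition with exactly 3 rule genes and stayed outside. The members with exactly 4 had a median of 6525 UMIs, and their pooled Acta2 level was 15733 CPM (UMIs of the gene scaled to a common total). The cells just outside had a median of 4078 UMIs, and their pooled Acta2 level was 5026 CPM. No barcode was shared by members of different libraries, and any 2 libraries shared 27 to 49 of all their barcodes.

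Members numbered 383 and 161 in frail libraries 1 and 2, against 334, 336 and 145 in control libraries 1 to 3. Their summed UMIs came to 5084946 and 2072776 in the frail libraries, against 3500640, 3270041 and 1943653 in the controls. The median depth was 13089 and 12573 UMIs in frail members, against 9766, 9164.5 and 13780 UMIs in control members. The libraries did not line up by frailty in every gene. Notch3, the receptor through which endothelial ligands keep mural cells mature, stood at 318 and 824 CPM in frail libraries, against 875, 795 and 424 CPM in controls. Rgs5, a regulator of G protein signalling abundant in pericytes, stood at 283 and 1035 CPM in frail libraries, against 1164, 774 and 378 CPM in controls. The inward rectifier potassium channel Kcnj2 stood at 15.3 and 56.0 CPM in frail libraries, against 48.8, 56.6 and 15.9 CPM in controls. In these 3 genes frail library 1 and control library 3 were the lowest, and the groups overlapped.

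The smooth muscle label held. Of 12 smooth muscle genes that the rule did not use, 11 stood in every smooth muscle library above every pericyte library, and all 12 stood above every library of fibro-adipogenic cells. The exception was Actg2, enteric smooth muscle actin, at 29.5 and 29.4 CPM in frail libraries, against 7.43, 8.26 and 77.7 CPM in controls, with up to 9.10 CPM in pericytes. The pericytes, 1433 cells, had at least 3 of 6 pericyte genes (Kcnj8, Higd1b, Abcc9, Vtn, Ndufa4l2 and Steap4) and at most 1 of the rule genes. Their median depth was 2774 to 3354.5 UMIs per library, shallower than that of the members. Since the rules chose both sets, their levels stand side by side with no test.

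Acta2, smooth muscle actin (chromosome 19, 34241090 to 34255590, GRCm38), stood at 25600.1 and 20872 CPM in frail libraries, against 23076, 21107 and 22162 CPM in controls. Across pericyte libraries it ranged over 616 to 2128 CPM. Tagln, the actin-binding protein transgelin, stood at 19296 and 17717 CPM in frail libraries, against 14956, 13241 and 17504 CPM in controls, and at 295 to 857 CPM in pericytes. The myosin light chain Myl9 was nearly level over the 5 libraries, at 8210.1 and 8385 CPM in frail ones, against 8685, 7745 and 8291 CPM in controls. Mylk, the kinase that phosphorylates that light chain, stood at 2568 and 3290.3 CPM in frail libraries, against 3539, 3312 and 3369 CPM in controls. Of the 22 listed genes of the contractile apparatus, 20 stood above every pericyte library in every smooth muscle library. The list includes 3 genes of the rule, whose place was set by the choice of cells and is not a result. The share of all genes that stood above every pericyte library was not counted.

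**Figure D1:**
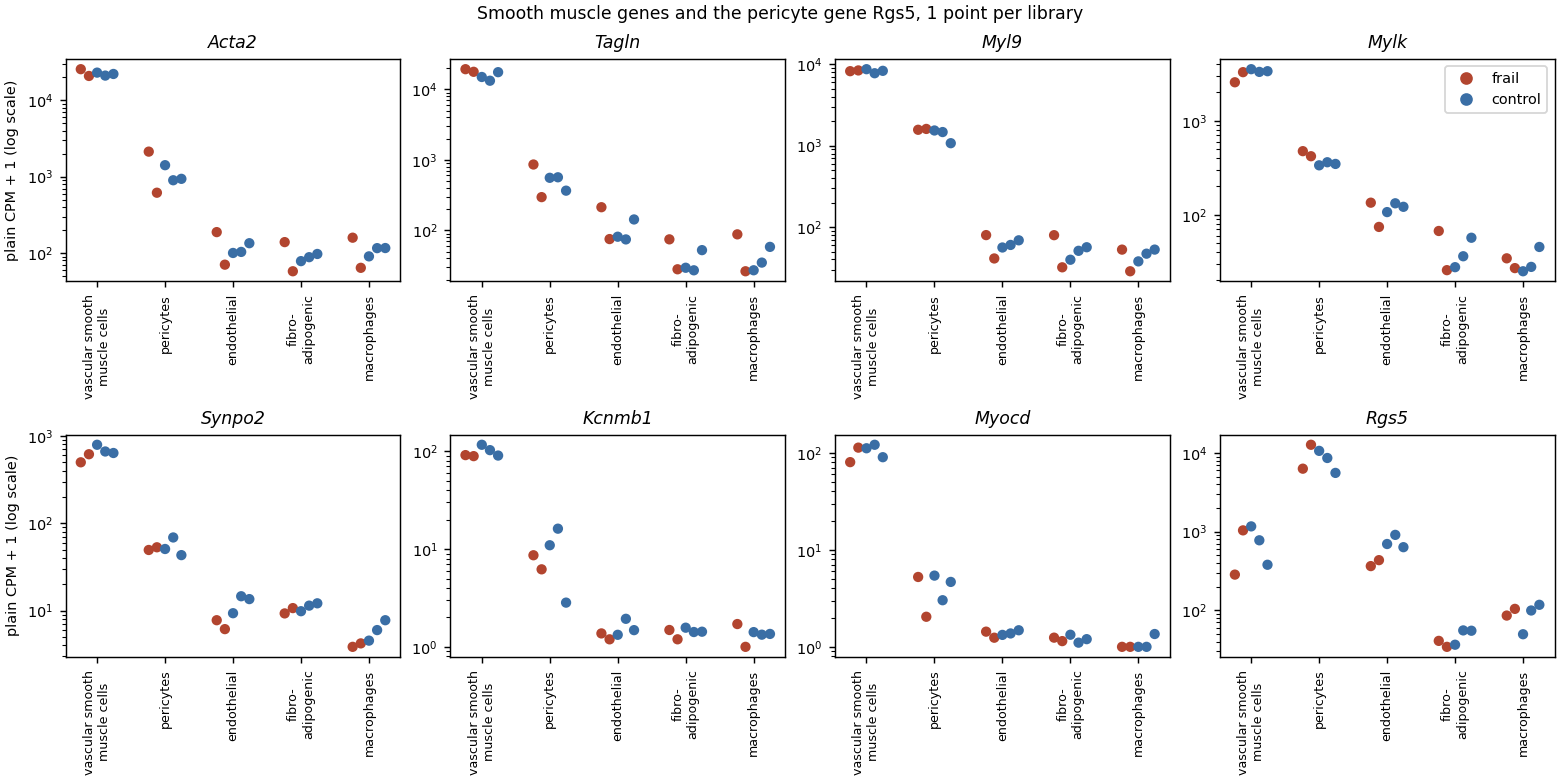
Plain CPM plus 1 on a log axis for 8 genes, 1 point per library (frail and control), in vascular smooth muscle cells and in 4 other sets of cells defined by marker rules. Acta2 stands at 20872 CPM or more in every smooth muscle library and at 2128 CPM or less in pericytes, and Rgs5 stands highest in pericytes.

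Many genes of the contractile apparatus carry CArG boxes, the element read by serum response factor, which is why 3 of their promoters are printed. The box was searched on both strands in the 250 bases before the RefSeq start of transcription (build GRCm38.p6), as CC, then 6 bases that are each A or T, then GG. A second form allowed exactly 1 of those 6 to be C or G. Of the 22 contractile genes, 18 had a promoter in the table. The exact box was found in 3 of them (16.7%) and either form in 6 (33.3%), against 1.62% and 9.78% of all 27025 genes with a promoter. This was not particular to the contractile list. The shares were 8.33% and 33.3% of 12 smooth muscle transcription factors, and 11.1% and 27.8% of 18 immediate early genes. They were 4.17% and 12.5% of 24 channel and calcium store genes, and 10 Notch pathway genes had neither form. Capitals mark either form in promoters of Acta2 (chr19:34255374-34255623, minus strand), Myl9 (chr2:156775214-156775463, plus strand) and Myl6 (chr10:128493010-128493259, minus strand).
Acta2: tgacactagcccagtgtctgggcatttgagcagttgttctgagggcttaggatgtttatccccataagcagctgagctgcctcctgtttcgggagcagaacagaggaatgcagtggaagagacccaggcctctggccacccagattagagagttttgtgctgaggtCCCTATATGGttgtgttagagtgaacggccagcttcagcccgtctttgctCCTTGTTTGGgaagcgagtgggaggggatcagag
Myl9: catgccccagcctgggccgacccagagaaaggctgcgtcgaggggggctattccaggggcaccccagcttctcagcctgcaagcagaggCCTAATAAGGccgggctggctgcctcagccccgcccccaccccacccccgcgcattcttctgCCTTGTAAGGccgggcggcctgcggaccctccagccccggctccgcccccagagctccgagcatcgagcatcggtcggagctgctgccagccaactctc
Myl6: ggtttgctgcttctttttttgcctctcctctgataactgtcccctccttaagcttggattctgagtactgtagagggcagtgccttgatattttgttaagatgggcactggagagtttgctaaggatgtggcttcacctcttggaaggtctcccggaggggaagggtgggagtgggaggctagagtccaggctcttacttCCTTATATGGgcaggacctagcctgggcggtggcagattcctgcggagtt
Acta2 held 2 boxes of the second form, Myl9 held 1 of each form, and Myl6 held 1 exact box. These are matches of letters, and binding was not measured. Srf, serum response factor itself, stood at 26.5 and 28.9 CPM in frail libraries, against 17.4, 23.5 and 21.6 CPM in controls, so the groups did not overlap (log2 0.51, SE 0.22, edgeR adjusted p = 0.996). Its cofactor Myocd, which drives smooth muscle genes, stood at 79.1 and 112 CPM in frail libraries, against 110.3, 120 and 89.0 CPM in controls, and at 1.04 to 4.42 CPM in pericytes.

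Genes with at least 50 CPM in every smooth muscle library were also ranked by the lowest of these over the highest library of any other set, with 1 CPM added to each. Outside the rule, the leading genes were Gpr20, an orphan G protein-coupled receptor, Map3k7cl, Lrrc10b, Rgs7bp, a membrane anchor of RGS proteins, and Itga8, an integrin subunit. Gpr20 stood at 70.4 and 115 CPM in frail libraries, against 98.6, 86.2 and 62.3 CPM in controls, and had no UMI in pericytes. Itga8 stood at 230.1 and 284 CPM in frail libraries, against 240, 253 and 280.4 CPM in controls, and at 8.28 CPM in the highest library of another set. Both were high in all 5 libraries, with the groups overlapping.

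Genes of calcium handling stood above pericytes in some cases and below them in others. Of 31 channel and calcium store genes, 15 stood above every pericyte library and 4 below. The share of all genes above or below every pericyte library was not counted, so these counts are not a result about this list. Ryr2, a calcium release channel of the sarcoplasmic reticulum, stood at 62.5 and 56.9 CPM in frail libraries, against 51.4, 38.5 and 96.2 CPM in controls, with no UMI in any pericyte library. Kcnmb1, the beta subunit that tunes the large-conductance potassium channel to calcium, stood at 90.5 and 88.3 CPM in frail libraries, against 116, 102 and 89.5 CPM in controls, and at 1.83 to 15.2 CPM in pericytes. Abcc9, the sulfonylurea receptor of the vascular KATP channel, was among the 4 below. It stood at 4.52 and 10.6 CPM in frail libraries, against 7.14, 7.65 and 11.8 CPM in controls, with 1064 to 2087 CPM in pericytes. Abcc9 is among the genes that chose the pericytes, so its place below them is not a result.

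Of 34 vasoactive receptors, 10 stood above every pericyte library and 13 below, again with no share over all genes to set beside them. P2rx1, the ATP-gated channel of sympathetic vasoconstriction, was among the higher ones, at 53.9 and 71.9 CPM in frail libraries, against 100.3, 63.9 and 75.1 CPM in controls, and at no more than 1.22 CPM in pericytes. The angiotensin receptor Agtr1a was among the lower ones, at 1.18 and 1.45 CPM in frail libraries, against 1.14, 0.917 and 1.03 CPM in controls, with 88.4 to 300.0 CPM in pericytes. The neuropeptide Y receptor Npy1r did not set the 2 kinds of mural cell so far apart, at 393 and 463 CPM in frail libraries, against 508, 651 and 405 CPM in controls, with 263 to 438 CPM in pericytes.

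Other lists were set beside another set of cells in the same way. Of 23 elastic and interstitial matrix genes, 18 stood below every fibro-adipogenic library and 1 above. Dcn and Col1a1 in that list were among the genes that chose the fibro-adipogenic cells, so their place is not a result. Of 34 interferon response genes, 26 stood below every fibro-adipogenic library and none above. Of 29 oxidative phosphorylation genes, 28 stood above every pericyte library. The shares over all genes were not counted for these comparisons, so the counts are not read as results about the lists.

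The share of these cells among retained cells did not separate the groups. It was 4.10% and 1.53% in frail libraries, against 3.86%, 3.41% and 1.20% in controls. The 95% Wilson intervals, which cover counting error only, ran from 3.71 to 4.52% and from 1.31 to 1.78% in the frail libraries, against 3.48 to 4.29%, 3.07 to 3.79% and 1.02 to 1.41% in the controls. The mean was 2.81 ± 1.81% in frail and 2.82 ± 1.42% in control libraries (SD, n = 2 and 3), and the exact two-sided permutation test gave p = 1, where 0.1 is the smallest p it allows. The difference was -0.01 percentage points, and leaving out 1 library moved it over -1.29 to 1.27, with a positive sign without frail library 2, control library 1 or control library 2. Among these cells plus pericytes, they made up 56.4% and 35.2% in frail libraries, against 60.5%, 55.0% and 29.4% in controls. Those means were 45.8 ± 14.97% in frail and 48.3 ± 16.6% in control libraries (SD, n = 2 and 3, exact permutation p = 0.9), and that difference likewise changed sign with the library left out (-13.1 to 8.10).

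**Figure D2:**
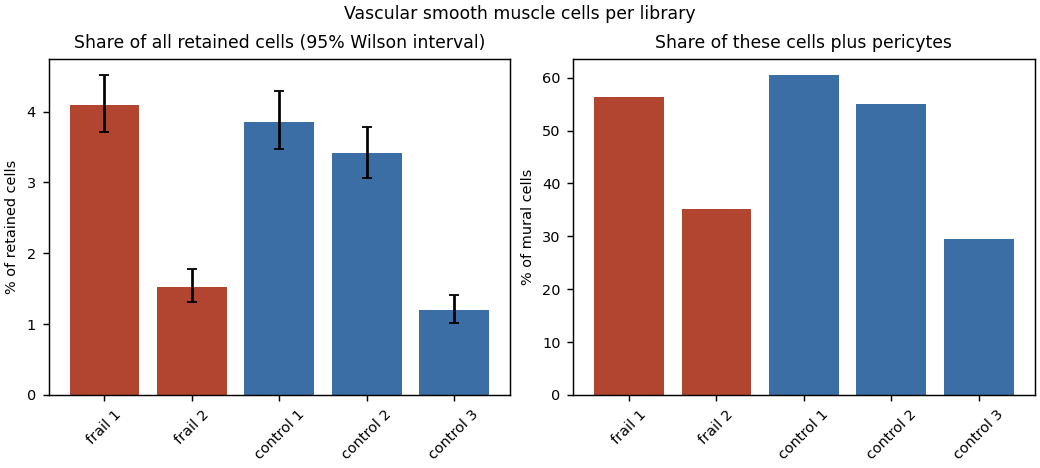
Left, vascular smooth muscle cells as a percentage of retained cells per library, with 95% Wilson intervals; right, as a percentage of these cells plus pericytes. The frail bars on the left stand at 4.10% and 1.53%, and the control bars between 1.20% and 3.86%.

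UMIs were summed per library over the members and tested with edgeR's quasi-likelihood test across 11206 genes. No gene passed at an adjusted p of 0.05 (smallest adjusted p 0.136), so 0.00% were called higher and 0.00% lower in frail libraries. At an unadjusted p under 0.05, 182 genes (1.62%) were higher and 292 (2.61%) lower. On the TMM-scaled values of the fit, both frail libraries stood above all 3 controls in 1033 genes (9.22%) and below them in 1008 (9.00%). DESeq2 called none of 11205 genes higher (0.00%) and 22 lower (0.196%), and limma-trend called none (438 at an unadjusted p under 0.05). Leaving out control library 3 gave 42 edgeR calls, and leaving out control library 2 gave 7. In such sums, fewer cells of a kind and less RNA per cell cannot be told apart.

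Of the 22 DESeq2 calls, 14 were genes of the skeletal myofibre, and the other 8 were Postn, Cxcl10, Il6, H2-Aa, Cd74, Egr1, Gfra2 and Ccl6. The 12 myofibre markers summed to 84.2 and 94.6 CPM in the frail members, against 921, 1963 and 382 CPM in control members, and 3 of them had no UMI in frail library 2. Atp2a1, the calcium pump of fast fibres, stood at 2.36 and 4.34 CPM in frail libraries, against 45.7, 53.5 and 16.5 CPM in controls, and passed edgeR without control library 3 (adjusted p = 0.00108). A cluster of 15 members, 1 frail and 14 control, carried 5883 of the 11008 myofibre marker UMIs (53.4%). Without it the markers summed to 54.4 and 94.6 CPM in frail members, against 352, 936 and 227 CPM in control members. Over all retained cells, those with a myofibre marker UMI made up 27.7% and 42.7% in frail libraries, against 91.1%, 98.9% and 86.8% in controls. Among fibro-adipogenic cells they made up 22.1% and 41.6% in frail libraries, against 92.5%, 99.3% and 88.7% in controls. The lower myofibre signal of the frail libraries was thus not particular to smooth muscle cells. The part of myofibre RNA in the DESeq2 calls was not tested.

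The contractile apparatus had similar levels in both groups. Of its 19 genes tested outside the rule, 14 had a positive and 5 a negative log2 fold change, none passed, and the median was 0.09 beside 0.01 over all genes tested. Both frail libraries stood above all controls in 3 (Tagln, Csrp1 and Myl9, the last on the TMM scale alone) and below in 1, Synpo2, where 9.22% and 9.00% of all genes were. Acta2 had a log2 fold change of 0.17 (SE 0.20, edgeR adjusted p = 0.996), which turned to -0.04 without frail library 1. Tagln had 0.37 (SE 0.21, edgeR adjusted p = 0.996). Csrp1, a LIM protein of actin filaments, stood at 2480 and 3117 CPM in frail libraries, against 1950.2, 2142 and 2382 CPM in controls (log2 0.46, SE 0.20, edgeR adjusted p = 0.996). The 29 oxidative phosphorylation genes had a median of -0.0005 on the log2 scale, and the 29 channel and calcium store genes a median of -0.10, with none higher and 3 lower without overlap, close to the 9.00% of all genes lower.

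Among 23 vasoactive receptors tested, 11 had a positive and 12 a negative log2 fold change, with 3 above every control and 1 below, near the 9.22% and 9.00% of all genes. Tbxa2r, the thromboxane receptor, stood at 46.4 and 45.3 CPM in frail libraries, against 30.3, 26.9 and 40.1 CPM in controls (log2 0.61, SE 0.23, edgeR adjusted p = 0.996). Ptger3, a prostaglandin E2 receptor, stood at 16.7 and 18.3 CPM in frail libraries, against 8.57, 6.42 and 13.4 CPM in controls (log2 1.02, SE 0.33, edgeR adjusted p = 0.996). In both the groups did not overlap and the test was not passed. Among the 14 genes of cGMP and cAMP relaxation, Gucy1a1, a subunit of soluble guanylate cyclase, stood at 807 and 890 CPM in frail libraries, against 745, 718 and 771 CPM in controls. Rgs2, which shortens signalling by vasoconstrictor receptors, stood at 70.0 and 99.4 CPM in frail libraries, against 122, 208 and 102 CPM in controls (log2 -0.68, SE 0.29, edgeR adjusted p = 0.996). The Notch target Hey1 stood at 8.06 and 12.1 CPM in frail libraries, against 7.14, 4.89 and 3.09 CPM in controls, and another, Hes1, overlapped, at 946 and 836 CPM in frail libraries, against 1393, 1385 and 812 CPM in controls.

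Gdf15, the stress cytokine of the study's title (chromosome 8, 70629393 to 70632456), had its lowest frail library above its highest control. It stood at 53.5 and 51.6 CPM in frail smooth muscle (52.6 ± 1.32, SD, n = 2), against 34.9, 32.1 and 24.7 CPM in controls (30.6 ± 5.25, SD, n = 3). The fitted fold was 1.83 (log2 0.87, SE 0.20), and it was not called (adjusted p = 0.557 by edgeR, 0.544 by DESeq2 and 0.580 by limma). Leaving out 1 library kept the log2 fold change between 0.78 and 0.97. Cells with a Gdf15 UMI made up 25.6% and 24.8% of frail members (Wilson 21.5 to 30.2% and 18.8 to 32.1%), against 18.6%, 15.2% and 18.6% of control members (14.8 to 23.1%, 11.7 to 19.4% and 13.1 to 25.7%). In fibro-adipogenic cells, whose median depth was 7495.5 to 8947 UMIs, the share was 2.41% and 2.14% in frail libraries, against 1.46%, 0.966% and 2.82% in controls. With each member thinned to 5000 UMIs, the share was 14.4% and 16.4% in frail libraries, against 13.7%, 12.5% and 7.30% in controls, after 7 and 2 frail and 13, 33 and 8 control members too shallow for that were left out. The groups stayed apart by under 1 percentage point. The 5% of cells richest in Gdf15 held 54.8% and 53.3% of its UMIs in frail libraries, against 54.1%, 64.8% and 47.9% in controls.

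In pericytes Gdf15 overlapped, at 104 and 45.8 CPM in frail libraries, against 74.1, 100.1 and 64.2 CPM in controls. In macrophages it stood at 170 and 146 CPM in frail libraries, against 35.5, 33.2 and 127 CPM in controls, and in fibro-adipogenic cells at 5.89 and 5.88 CPM in frail libraries, against 1.81, 1.20 and 4.37 CPM in controls. By CPM, both of those sets had the order seen in smooth muscle. By the share of cells with a Gdf15 UMI, given above, the groups overlapped in fibro-adipogenic cells. That share overlapped in endothelial cells too, at 4.39% and 2.24% in frail libraries, against 1.89%, 1.96% and 3.53% in controls. Gfral, the GDF15 receptor, had no UMI in any smooth muscle library, which allows up to 0.59 and 1.45 CPM in frail libraries, against 0.857, 0.917 and 1.54 CPM in controls (3 UMIs per library). Ret, its co-receptor, did not pass the filter on low counts. Of 13 tested genes of the integrated stress response, the list that holds Gdf15, 9 had a negative log2 fold change. Its transcription factor Atf4 stood at 167 and 160 CPM in frail libraries, against 251, 285 and 192 CPM in controls (log2 -0.47, SE 0.20, edgeR adjusted p = 0.996).

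Aldh1l1, a folate enzyme (chromosome 6, 90486427 to 90600203), had the highest log2 fold change of the genes tested, 3.85 (SE 0.61, edgeR adjusted p = 0.277). It stood at 19.1 and 28.5 CPM in frail libraries, against 0.286, 3.98 and 0.514 CPM in controls, from 97 and 59 UMIs in the frail ones and 1, 13 and 1 in the controls. With 1 library left out, its log2 fold change ranged from 3.26 to 5.91, and it passed edgeR without control library 2 (5.91, adjusted p = 0.000937) and without control library 3 (3.58, adjusted p = 0.0459). In fibro-adipogenic cells it stood at 20.3 and 20.3 CPM in frail libraries, against 2.04, 2.40 and 2.86 CPM in controls. Endothelial cells overlapped, with 22.1 and 54.4 CPM in frail libraries, against 29.1, 27.5 and 28.9 CPM in controls. Gja4, the gap junction protein connexin 37, stood at 188 and 206 CPM in frail libraries (197 ± 12.9, SD, n = 2), against 129, 91.7 and 114 CPM in controls (112 ± 18.8, SD, n = 3), a fold of 1.88 (log2 0.91, SE 0.20, edgeR adjusted p = 0.526). Fas, a death receptor, stood at 58.4 and 50.7 CPM in frail libraries, against 33.7, 32.1 and 41.7 CPM in controls. Dusp2, a phosphatase of MAP kinases, stood at 11.6 and 13.03 CPM in frail libraries, against 3.43, 5.50 and 7.20 CPM in controls. With Gdf15, Rnf215, Pold4 and Sclt1 these were the 8 genes of smallest p on the higher side, and with all 5 libraries none passed edgeR.

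**Figure D3:**
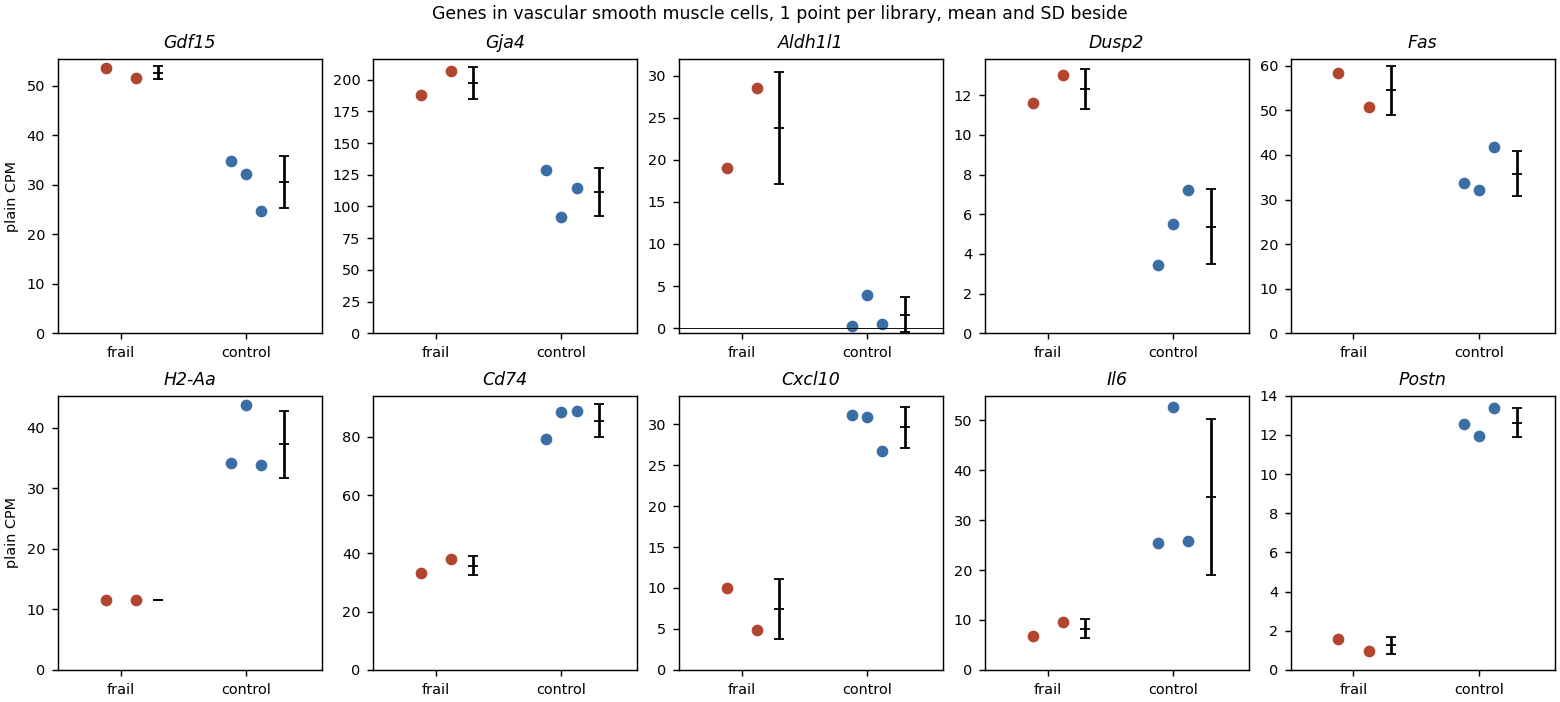
Plain CPM in vascular smooth muscle cells for 10 genes, 1 point per library, with mean and SD beside; frail libraries left and controls right. Gdf15 lies at 51.6 CPM or more in frail libraries and at 34.9 CPM or less in controls, and H2-Aa lies at 11.6 CPM in both frail libraries and at 34.0 CPM or more in controls.

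Genes of MHC class II, which present antigen to T cells, were lower in frail libraries. Of 7 listed, 5 were tested, all with a negative log2 fold change (median -1.17) and all with both frail libraries below every control, where 9.00% of all genes were; none passed edgeR. H2-Aa stood at 11.6 and 11.6 CPM in frail libraries, against 34.3, 43.7 and 34.0 CPM in controls (log2 -1.58, SE 0.23, adjusted p = 0.136 by edgeR and 0.00363 by DESeq2), and it passed edgeR without control library 3 (adjusted p = 0.0308). Cd74, the invariant chain, stood at 33.4 and 38.1 CPM in frail libraries, against 79.1, 88.7 and 89.0 CPM in controls (log2 -1.17, SE 0.19, adjusted p = 0.192 by edgeR and 0.00482 by DESeq2). Macrophages held far more H2-Aa, 7523 and 5561 CPM in frail libraries, against 5855, 5472 and 5380.4 CPM in controls. The 12 macrophage markers summed to 60.0 and 263 CPM in frail members, against 327, 235 and 218 CPM in control members, with none of them at 0 in any library. Of the 12, 10 had a negative log2 fold change (median -0.72), and 2 (Lyz2 and Ccl6) lay below every control in both frail libraries. Over all retained cells, those with a macrophage marker UMI made up 47.3% and 62.1% in frail libraries, against 81.0%, 79.3% and 68.6% in controls. The part of macrophage RNA in the MHC class II values was not tested. In members with under 3 macrophage marker UMIs, a limit chosen after seeing the data, H2-Aa had a log2 fold change of -1.26 and Cd74 of -0.92 (edgeR adjusted p = 0.370 and 0.437). That limit kept 369 and 147 frail members, against 225, 200 and 113 control members.

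Of 23 chemokine and other inflammation genes tested, none passed edgeR. In 19 the log2 fold change was negative and in 4 positive (median -0.66), with 9 below every control and 1 above, where 9.00% and 9.22% of all genes were. Cxcl10, an interferon-induced chemokine, stood at 10.03 and 4.82 CPM in frail libraries, against 31.1, 30.9 and 26.8 CPM in controls (log2 -1.77, SE 0.30, adjusted p = 0.217 by edgeR and 0.00489 by DESeq2), and at a log2 fold change of -2.57 without frail library 1. The cytokine Il6 stood at 6.88 and 9.65 CPM in frail libraries, against 25.4, 52.6 and 25.7 CPM in controls (log2 -2.02, SE 0.37, adjusted p = 0.288 by edgeR and 0.00296 by DESeq2). Il6 passed edgeR in members with under 3 macrophage marker UMIs (log2 -1.91, adjusted p = 0.0438) and without control library 3 (log2 -2.15, adjusted p = 0.0498). With 1 library left out its log2 fold change ranged over -2.21 to -1.60. Tnfaip3, which restrains NF-kappaB signalling, stood at 2.75 and 6.75 CPM in frail libraries, against 19.1, 20.2 and 9.78 CPM in controls (log2 -1.87, SE 0.43, edgeR adjusted p = 0.557), and a library left out moved its log2 fold change over -2.46 to -1.25. Il6 in fibro-adipogenic cells stood at 46.3 and 47.2 CPM in frail libraries, against 117, 128 and 102 CPM in controls. The 26 interferon response genes tested were split, 12 positive and 14 negative, with Irf1 at 251 and 207 CPM in frail libraries, against 454, 419 and 357 CPM in controls.

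Elastic and interstitial matrix genes had a median log2 fold change of -0.59, with 21 of 23 negative and 9 below every control, where 9.00% of all genes were, and none was called. Col6a1, a chain of collagen VI, stood at 17.1 and 16.9 CPM in frail libraries, against 25.4, 36.4 and 42.7 CPM in controls (log2 -0.92, SE 0.27, edgeR adjusted p = 0.918). Postn, periostin, a matrix protein that is not in that list, stood at 1.57 and 0.965 CPM in frail libraries, against 12.6, 11.9 and 13.4 CPM in controls (log2 -3.05, SE 0.41, adjusted p = 0.136 by edgeR and 0.00317 by DESeq2). Those levels rest on 8 and 2 UMIs in frail libraries, against 44, 39 and 26 in controls. Postn passed edgeR without control library 2 (adjusted p = 0.0477) and without control library 3 (adjusted p = 0.0266). In fibro-adipogenic cells Postn overlapped, at 17.2 and 58.9 CPM in frail libraries, against 77.2, 128 and 57.1 CPM in controls. The 8 fibro-adipogenic markers summed to 1328 and 1747 CPM in frail members, against 1722, 2004 and 2066 CPM in control members, with none at 0, and Gsn, the most abundant in every library, took 821 and 1186 CPM of those sums in frail members, against 1021, 1099 and 1062 CPM in control members. Of 7 fibro-adipogenic markers tested, 6 had a negative log2 fold change (median -0.59), and 4 (Dcn, Dpt, Lum and Pi16) lay below every control, where 9.00% of all genes did. Among clusters of the members, cluster 6 held Dcn at 6770 CPM, against 193 to 244 CPM in the others. That cluster made up 2.61% and 2.48% of frail members, against 2.40%, 2.08% and 10.3% of control members. The part of fibro-adipogenic markers and of cluster 6 in the matrix values was not tested. Basement membrane genes, which smooth muscle cells lay down themselves, had 11 positive and 8 negative log2 fold changes and a median of 0.07.

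Immediate early genes, which respond to stimulation within minutes, had 18 of 23 negative log2 fold changes and a median of -0.28. Egr1 stood at 1227 and 1298 CPM in frail libraries, against 2863, 3546 and 1802 CPM in controls (log2 -1.01, SE 0.25, adjusted p = 0.660 by edgeR and 0.0368 by DESeq2), and it passed edgeR without control library 3 (adjusted p = 0.0459). Leaving out 1 library moved the log2 fold change of Egr1 over -1.22 to -0.81. Fos overlapped, at 5444 and 4598 CPM in frail libraries, against 6338, 5458 and 5140.3 CPM in controls. Of 13 senescence genes, Cdkn1b, an inhibitor of cell cycle kinases, stood at 56.2 and 64.6 CPM in frail libraries, against 37.99, 49.2 and 40.6 CPM in controls (log2 0.59, SE 0.19, edgeR adjusted p = 0.996). Igfbp5, which binds insulin-like growth factors, stood at 1280.2 and 1400 CPM in frail libraries, against 2304, 2037 and 1795 CPM in controls (log2 -0.52, SE 0.19, edgeR adjusted p = 0.996). The 2 thus pointed opposite ways, and neither was called.

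**Figure D4:**
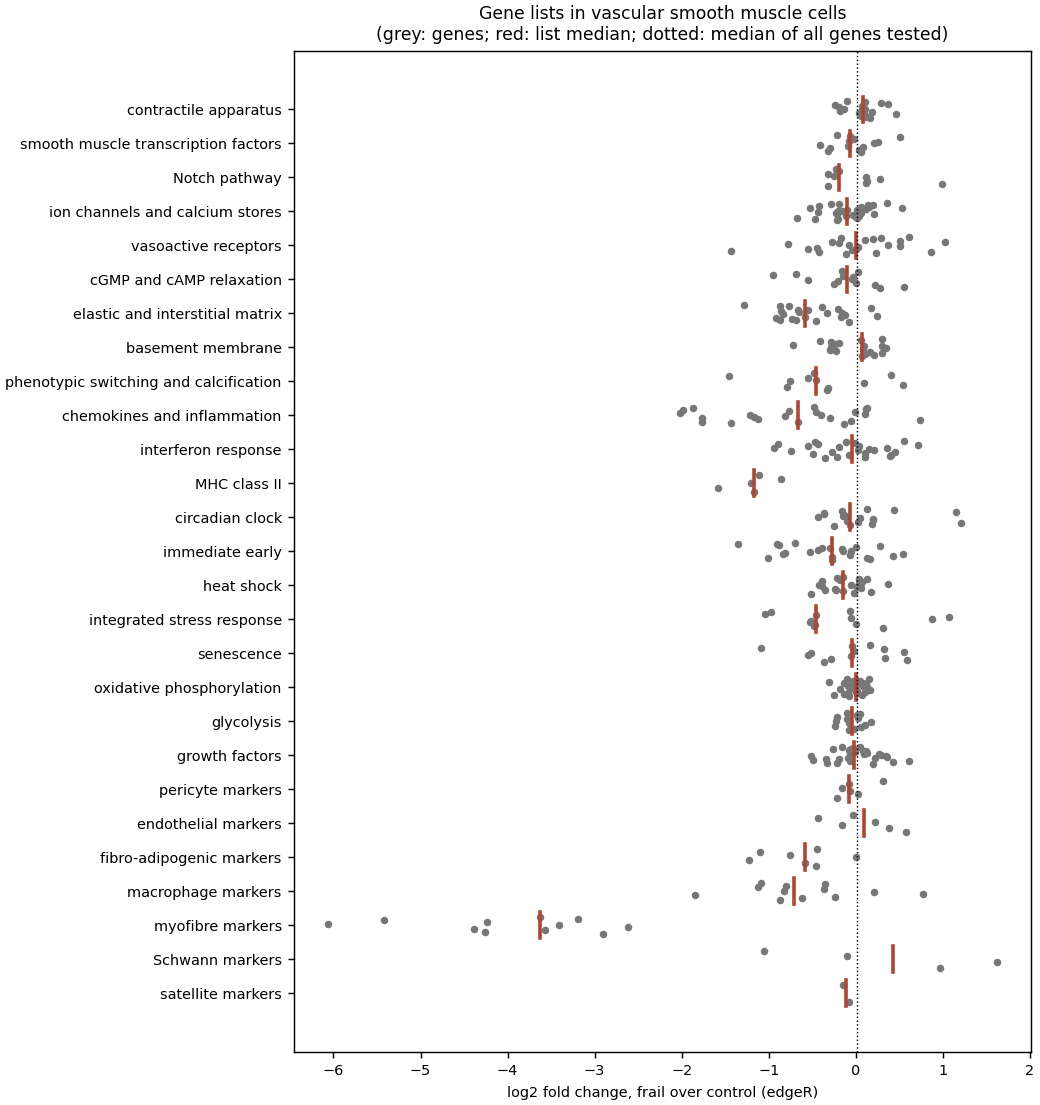
Log2 fold change, frail over control, of every tested gene outside the rule in each list shown (grey points), with the list median (red) and the median of all genes tested (dotted, 0.01). Contractile and oxidative phosphorylation genes sit around 0, with medians of 0.09 and -0.0005, and MHC class II and myofibre genes sit lower, with medians of -1.17 and -3.63.

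The frail effect was also set against that in pericytes of the same libraries. Of 9190 genes, limma-trend called 0.00% higher and 0.00% lower (smallest adjusted p 0.830; 532 at an unadjusted p under 0.05), and edgeR with the library as a block called none (577 at an unadjusted p under 0.05). For Gdf15 the effect was 0.87 in smooth muscle cells and -0.22 in pericytes on the log2 scale, a difference of 1.09 (SE 0.40, limma adjusted p = 0.830). For H2-Aa it was -1.54 in smooth muscle cells and -1.37 in pericytes (difference -0.16, SE 0.61, limma adjusted p = 0.981). For Postn it was -2.75 in smooth muscle cells and -1.14 in pericytes (difference -1.61, SE 0.59, limma adjusted p = 0.830). S1pr3, a sphingosine 1-phosphate receptor, had -0.19 in smooth muscle cells and 1.07 in pericytes (difference -1.26, SE 0.31, limma adjusted p = 0.830). None of these differences passed.

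Within the members, clustering gave 7 groups of 345, 340, 274, 212, 129, 44 and 15 cells, left unnamed. Their leading genes included Actg2 and Npnt in cluster 1, Rgs5 and Ednrb in cluster 2, Nr4a2 and Nr4a3 in cluster 3, haemoglobin genes in cluster 4, Ccn3 and Itga5 in cluster 5, Thbs4 and Krt15 in cluster 6, and Mylpf and Tnnt3 in cluster 7. Cluster 1 held 42.3% and 21.7% of frail members, against 12.9%, 14.3% and 39.3% of control members. Cluster 3 held none and 10.6% of frail members, against 31.7%, 44.6% and 0.690% of control members. Cluster 4 held 38.4% and 8.70% of frail members, against 2.40%, 1.49% and 26.2% of control members. Frail library 1 and control library 3 were alike in all 3, and no comparison of the groups was drawn from cluster sizes. Cluster 7 is the group of 15 cells rich in myofibre markers described with the DESeq2 calls.

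**Figure D5:**
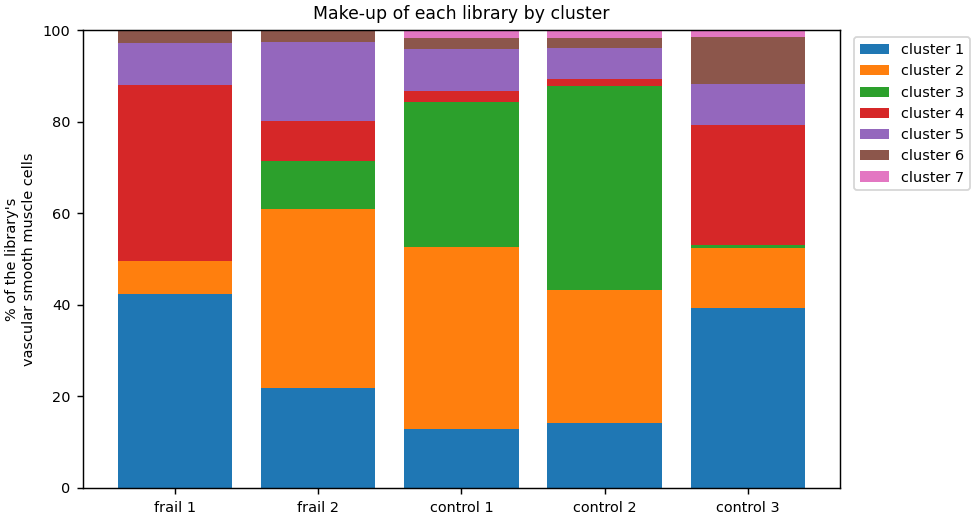
Percentage of each library's vascular smooth muscle cells in each of 7 clusters, frail libraries left and control libraries right. Cluster 3 takes 31.7% and 44.6% in control libraries 1 and 2, and 0.690% in control library 3.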

How the data were processed

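The authors deposited UMI counts per gene and barcode for 5 libraries; the file headers name Cell Ranger 7.0.0, and the submitters' processing notes also list bcl2fastq 5.01, Seurat 4.1.2 and GRCm38. Sources used here do not give the annotation or the barcode filter. The series text describes separate mice. Counts were summed per library over the members, so the library and not the cell is the replicate. The main test was edgeR 4.0.16 (robust quasi-likelihood, TMM, filterByExpr, Benjamini-Hochberg at 0.05). DESeq2 1.42.0 and limma 3.58.1 (prior count 2) ran beside it in R 4.3.3. Plain CPM divides a gene's UMIs by the total of its sum. Doublets were left in, and Scrublet at 0.4% per 1000 cells was an alternative. Shares were compared by an exact permutation test over the 10 choices of 2 of 5 libraries. Clusters (scanpy 1.11.5, Python 3.11.15) used 1000 variable genes, 15 components, 15 neighbours and resolution 0.5. The members and lists were chosen with earlier results of these data known. Named genes were, in each direction, the 8 of smallest p with groups apart and a mean log2 CPM of at least 3, then Gdf15, Ret, Gfral, Aldh1l1, Daglb, Il6, Ccl2 and Cxcl10, the smooth muscle check genes, and up to 4 per list; the library pattern genes Notch3, Rgs5 and Kcnj2 and some list members with groups apart were chosen after their values were seen. Ddit3 and Aldoa, each shared by 2 identifiers, were left out of the lists, and 1 list is not reported here. Tests were checked on simulated data. Alternatives were other limits of the rule, scalings, filters and tools, and leaving out each library. Positions are from GENCODE vM21, which holds 52081 of 55357 identifiers (94.1%).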

Additional observations from a re-analysis of the deposited data

How the results depend on the processing

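The count of genes past the threshold, 0 with edgeR, stayed 0 under other rule limits, a 5% mitochondrial limit, Scrublet removal, other scalings and limma-trend. It was 70 (7 higher, 63 lower) with no filter on low counts, 22 (all lower) with DESeq2's Wald test, 1 without cells of 3 or more macrophage and myofibre marker UMIs (which left 4 cells in control library 2) and 6 without cells of 3 or more macrophage marker UMIs, chosen after seeing the data. Leaving out 1 library gave 0 to 42 (42 without control library 3, 7 without control library 2). With the replicate number as a block it was 229 (82 higher, 147 lower). The deviations of same-numbered libraries from their group means correlated at -0.11 and 0.21. With 2 frail libraries such deviations mirror each other, so they cannot show whether libraries were paired. The series text describes separate mice, and the numbers were not taken as pairs. The block on the smooth muscle minus pericyte contrast gave 0. That contrast gave 0 under every alternative run. For 41 genes, 681 values under alternatives held 65 that passed and 1 that turned, Acta2, at -0.0426 without frail library 1 and 0.3331 without frail library 2. The difference in the share of retained cells, -0.01 percentage points, turned to 0.0378 with at least 5 rule genes, 0.0032 with at least 3, 0.0445 without high Scrublet scores, 1.38 without macrophage and myofibre UMIs, and ranged from -1.29 to 1.27 with 1 library left out. The difference in the share of mural cells, -2.49, turned to 22.7 without macrophage and myofibre UMIs, and ranged from -13.1 to 8.10 with 1 library left out. The macrophage and myofibre limit kept 323 and 121 frail members, against 47, 4 and 28 control members. Both shares under that limit therefore do not compare like sets of cells. For these shares the exact test cannot go below p = 0.1 with 2 against 3 libraries.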

Other observations

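Haemoglobin transcripts stood apart in 1 library of vascular smooth muscle cells. Hbb-bs, a beta globin, stood at 464 and 36.2 CPM in frail libraries, against 40.6, 108 and 34.0 CPM in controls. In pericytes the same gene stood at 145 and 65.6 CPM in frail libraries, against 61.9, 2023 and 1790.00 CPM in controls, so the high libraries differed between the 2 kinds of cell.

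Ccl2, a monocyte chemokine, stood at 5.51 and 6.75 CPM in frail smooth muscle, against 11.7, 26.9 and 13.4 CPM in control smooth muscle (log2 -1.43, SE 0.39, edgeR adjusted p = 0.765). Daglb, a lipase that makes the endocannabinoid 2-AG, overlapped, at 6.29 and 8.68 CPM in frail libraries, against 12.6, 11.9 and 6.69 CPM in controls.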
